A study of Mus musculus with 16 samples.

Results

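Kidneys of mice given the platinum drug cisplatin were compared with kidneys of mice given saline, with neither group preconditioned. The comparison uses 8 of the 16 libraries of the series: 4 labelled BL_cisplatin and 4 labelled BL_vehicle, BL standing for baseline. The mice were 20-week-old C57BL/6, a standard inbred strain, and received cisplatin or 0.9% sodium chloride as an intraperitoneal injection 72 h before the organs were taken. Per the labels, blood was flushed out with phosphate-buffered saline, and each kidney was divided and frozen in liquid nitrogen. Total RNA was sequenced after depletion of ribosomal RNA. The labels used here give no sex, no cisplatin dose and no statement that each library is a separate mouse. The p-values thus rest on the spread between libraries within all 4 groups of the series, which may be technical. The remaining 8 libraries are of cisplatin after calorie restriction for 4 weeks (CR_cisplatin, 4 libraries) and cisplatin after hypoxia on 3 successive days (HP_cisplatin, 4 libraries), and they served only the filter on low values and the estimate of the spread. A gene was tested where it reached 1 TPM in at least 4 of the 16 libraries, which left 15014 of 46078 genes. TPM scales the reads of a gene by transcript length and by library, so levels can be compared between genes. A difference is that of mean log2(TPM + 1), cisplatin minus vehicle, with its standard error (SE), and a gene is called where limma's adjusted p is under 0.05. After ± stands the SD over 4 libraries for a level in TPM or a percent, and the SE for a difference.

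The nephron filters blood in the glomerulus and then recovers most of the filtrate along a tube of distinct segments. The proximal tubule takes back glucose, amino acids, phosphate, bicarbonate and filtered protein, is packed with mitochondria and peroxisomes, and takes cisplatin up from the blood through organic cation transporters. The thick ascending limb recovers salt and secretes uromodulin, the distal convoluted and connecting tubules adjust salt and calcium, and principal and intercalated cells of the collecting duct set water, potassium and acid excretion. Cisplatin crosslinks DNA, and tubule cells answer such damage with the transcription factor p53. Injured tubule cells are known to lose their brush border and transporters and to express surface and secreted proteins such as Havcr1 (kidney injury molecule KIM-1) and Lcn2 (lipocalin NGAL).

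Whole reads recovered from the deposited values numbered between 54221026 and 69000985 per library across the series. The titles of the libraries carry 1 of 2 prefixes, and all 4 BL_cisplatin libraries have the first and all 4 BL_vehicle libraries the second, so the prefix and the treatment cannot be told apart within this comparison. Outside it, CR_cisplatin 1 has the first prefix, and CR_cisplatin 2 to 4 and HP_cisplatin 1 to 4 have the second. CR_cisplatin 1 had 1.29 TPM of Krt20 and 1406 TPM of Slc34a1. CR_cisplatin 2 to 4 had 0.0585, 0.0551 and 0.0887 TPM of Krt20 and 1915, 1848 and 1567 TPM of Slc34a1. HP_cisplatin 1 to 4 had 446, 26.9, 162 and 0.158 TPM of Krt20 and 23.3, 754, 170.0 and 1509 TPM of Slc34a1. With the prefix as a term, estimated from CR_cisplatin 1 alone, 1929 genes were called higher and 1484 lower, and 62 of the 233 genes named here lost their call. Of 135 gene lists and families with at least 4 genes tested and 1 called, 110 had over 1.5 times fewer calls with that term and 6 had none. The HP_cisplatin libraries, outside the comparison, differed widely from each other. HP_cisplatin 4 was nearest to CR_cisplatin 4, and these were the most alike of all 120 pairs of libraries: the SD over genes of their difference in log2(TPM + 1) was 0.176, against 0.213 for the next pair, cisplatin 2 and 3. From HP_cisplatin 1, 2 and 3, HP_cisplatin 4 differed by 0.908, 0.507 and 0.682. HP_cisplatin 1 differed by 0.635 and 0.415 from HP_cisplatin 2 and 3. It was nearer to cisplatin 1 to 4, at 0.257, 0.295, 0.291 and 0.341. Reads of HP_cisplatin 4 and CR_cisplatin 4 still differed by more than sampling noise, with a mean chi-square per gene of 3.70 where sampling alone gives about 1. Whether both come from 1 source was not tested, so the values above are of the library labelled HP_cisplatin 4. All 4 HP_cisplatin libraries enter the estimate of error, so each SE and p-value carries their spread besides that of the compared libraries. Without HP_cisplatin 4 in the fit 5996 genes were called higher and 4458 lower. With the compared groups fitted alone 5859 were called higher and 4433 lower.

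Of the 15014 genes tested, 10032 (66.8%) were called, with 5710 (38.0%) higher and 4322 (28.8%) lower after cisplatin. In 9537 genes (63.5%) the 4 cisplatin and 4 vehicle libraries did not overlap. These shares are the background against which every gene group below is read. Most calls were modest: the median difference was 0.60 among higher calls and -0.62 among lower calls on the log2 scale. Differences of more than 2-fold were called for 1392 higher and 1190 lower genes, of more than 8-fold for 108 and 125, and of more than 64-fold for 6 and 4. A further reading by detection found 587 genes, 428 of them protein-coding, at 1 TPM or more in all 4 cisplatin libraries and below it in all 4 vehicle libraries, against 296 and 198 for the reverse. The split between higher and lower calls depends on the scale, since nuclear protein-coding genes held 21.5% ± 0.936 of TPM after cisplatin and 25.5% ± 0.161 after saline (SD, n = 4 each). Higher genes were 56.9% of calls over the 15014 genes as tested, with a median difference of 0.084. Among the 12079 nuclear protein-coding genes of these, 4680 were higher and 3811 lower, with a median of 0.061. When each library was rescaled to its nuclear protein-coding sum, 6675 of the 12079 were higher and 2699 lower. Higher genes were then 71.2% of calls, and the median was 0.27. Where the median of a group changes sign on that scale, both medians are given.

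The rise was steepest in a small set of epithelial injury genes. Krt20, a keratin of intermediate filaments, stood at 414, 414, 429 and 369 TPM in the 4 cisplatin libraries against 0.0509, 0, 0.610 and 0.557 TPM in vehicle (difference 8.32 ± 1.24, adjusted p = 8.19e-05). Havcr1 stood at 400.0, 344, 298 and 489 TPM against 0.339, 0.306, 1.33 and 1.06 TPM (7.79 ± 1.30). Lcn2, a secreted iron-siderophore carrier, stood at 279.8, 305, 292 and 243 TPM against 0.841, 0.428, 0.987 and 0.409 TPM (7.41 ± 1.01). All 3 were below 2 TPM in every vehicle library and above 200 TPM in every cisplatin library. With recovered reads in place of TPM (limma voom), still fitted over all 4 groups, the adjusted p of Krt20 was 0.0606. The other leading rises were Fgg and Fga, chains of fibrinogen, Cdkn1a (p21), the cell cycle inhibitor induced by p53, Sprr1a and Sprr2f, small proline-rich proteins of stressed epithelia, Mt2, a metallothionein, and Gc, the vitamin D carrier of plasma. Sprr2f had no read in any vehicle library and 3789 reads over the 4 cisplatin libraries, at 41.8, 53.8, 43.9 and 24.3 TPM; against a floor of 3 reads over the vehicle group it was at least 1443-fold higher.

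The steepest falls were mostly of proximal tubule genes. Slc7a13, an aspartate, glutamate and cystine carrier of the straight segment, went from 321, 289.6, 277 and 294 TPM in vehicle to 2.63, 2.31, 2.21 and 2.78 TPM in cisplatin (difference -6.41 ± 0.93, adjusted p = 7.25e-05). Inmt, an indolethylamine N-methyltransferase, went from 325, 397, 339.6 and 563 TPM to 3.67, 3.91, 4.41 and 3.46 TPM (-6.36 ± 0.93). Akr1c21, a steroid-reducing aldo-keto reductase, went from 545, 578, 569.6 and 570.3 to 8.43, 5.69, 5.62 and 14.8 TPM (-5.98 ± 0.75). In none of these did any vehicle library come near a cisplatin library. The list continued with Slc34a1, the sodium-phosphate cotransporter of the proximal brush border, Cyp2d12, Ttc36, the organic anion carrier Slc22a28, the brush border protease Mep1b, Miox, the kidney-specific myo-inositol oxygenase, and Egf, the growth factor made by the distal nephron. Mean TPM of these 7 fell to between 0.812% and 2.31% of vehicle. Cyp2d12 varied most among vehicle libraries, at 71.3, 207, 87.8 and 65.3 TPM.

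**Figure D1:**
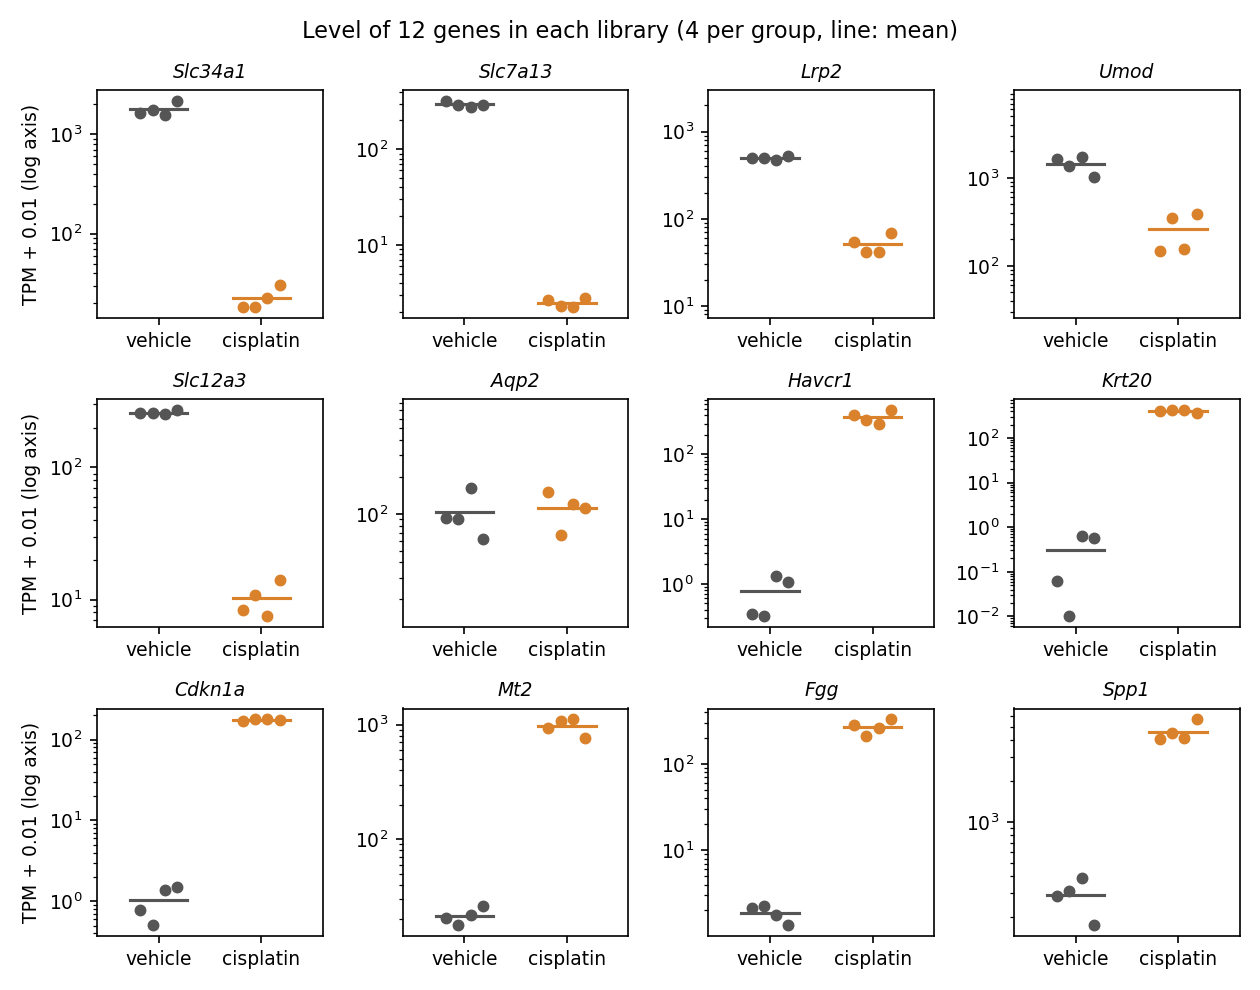
Level of 12 genes in each of the 4 vehicle and 4 cisplatin libraries (TPM + 0.01, log axis; each point is 1 library and each line the mean of 4). Slc34a1, Slc7a13, Lrp2, Umod and Slc12a3 were lower in all 4 cisplatin libraries than in any vehicle library, the 6 genes from Havcr1 to Spp1 were higher in all 4, and the 2 groups overlapped for Aqp2.

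In absolute terms, the largest loss among nuclear genes was of Kap, an androgen-regulated secreted protein of the mouse proximal tubule, which fell from 21612 ± 2057 to 1915 ± 115 TPM (SD, n = 4 each). By share of nuclear protein-coding TPM it went from 8.46% to 0.891%. Fxyd2, a regulatory subunit of the sodium pump, fell from 1677 ± 80.0 to 489 ± 53.2 TPM. Klk1, kallikrein of the connecting tubule, fell from 1472 ± 159 to 230.3 ± 74.3 TPM. On the gain side the largest protein-coding increments were of Spp1 (osteopontin), from 287 ± 87.6 to 4623 ± 772 TPM, then of Fth1, the heavy chain of the iron store ferritin, from 1186 ± 77.8 to 4337 ± 193 TPM. Mt1 and Mt2 followed. Over whole gene groups, solute carriers went from 4.66% to 1.99% of nuclear protein-coding TPM and cytochrome P450 enzymes from 1.37% to 0.594%. Cytosolic ribosomal proteins went from 3.33% to 6.66%, ferritin from 0.854% to 2.56%, Mt1 with Mt2 from 0.0413% to 1.17%, and keratins from 0.0288% to 0.365%. For each of these groups the 4 cisplatin and 4 vehicle shares did not overlap. The 100 most abundant genes of a library held 30.9% of it in vehicle and 23.6% after cisplatin.

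**Figure D2:**
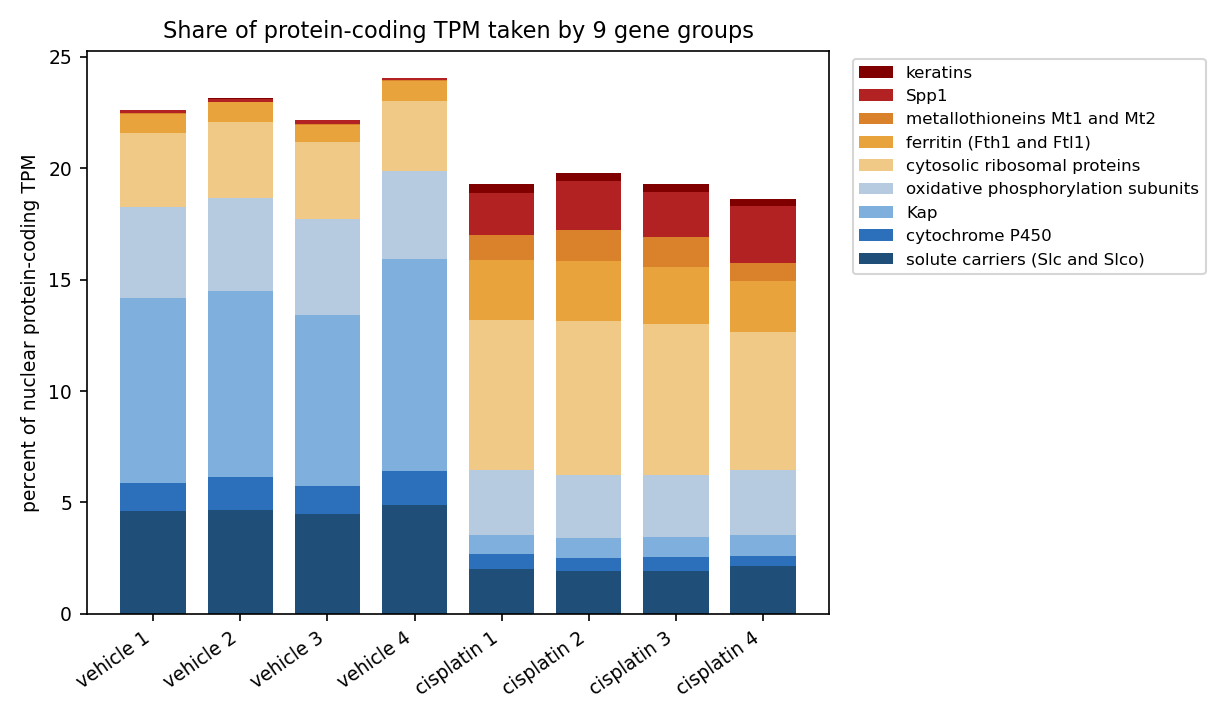
Percent of nuclear protein-coding TPM held by 9 gene groups in each library (stacked bars, 4 vehicle then 4 cisplatin libraries). Kap and the solute carriers shrink in all 4 cisplatin libraries while ribosomal proteins, ferritin, Spp1, metallothioneins and keratins widen.

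Along the nephron the median of a marker list was lowest in the convoluted proximal tubule, nearest 0 in the podocyte and above 0 in the thin limb. In bulk kidney RNA, fewer cells of a type and less RNA per cell cannot be told apart. Markers of the glomerular podocyte, the cell of the filtration barrier, showed no common direction: of 12 tested, 2 were higher and 6 lower, with a median of -0.16 that became 0.046 on the protein-coding scale. Nphs1 (nephrin) stood at 4.81 ± 1.34 TPM after cisplatin and 4.50 ± 0.263 TPM in vehicle and was not called. Within the same list Synpo, an actin-binding protein of foot processes, rose from 2.98 ± 0.396 to 7.67 ± 0.425 TPM, while Clic5 fell from 20.2 ± 1.87 to 7.46 ± 0.962 TPM and the transcription factor Tcf21 from 8.96 ± 1.37 to 3.14 ± 0.986 TPM.

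Of 13 markers of the convoluted proximal tubule, 12 were lower and none higher, with a median of -3.24. Their summed level went from 3095 ± 320.4 to 245 ± 31.2 TPM, 7.92% of vehicle. Slc34a1 stood at 1644, 1752, 1580.1 and 2173 TPM in vehicle and 18.2, 18.2, 22.5 and 30.2 TPM in cisplatin (difference -6.28 ± 0.87). Slc5a2 (SGLT2), the main carrier of filtered glucose, stood at 158, 191, 176 and 179.6 TPM and 10.7, 6.07, 10.6 and 23.3 TPM (-3.84 ± 0.52). Slc22a8 (OAT3), a basolateral carrier of organic anions, stood at 107, 132, 110.0 and 97.9 TPM and 3.46, 1.98, 3.17 and 3.01 TPM (-4.86 ± 0.57). The exception was Slc7a8, the basolateral light chain for neutral amino acids, at 29.0 ± 2.96 against 32.1 ± 3.09 TPM and not called. Of the cisplatin libraries, cisplatin 4 was the highest for Slc5a2 and Slc34a1.

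The straight proximal tubule, the segment that descends into the outer medulla, had 12 of 13 markers lower (median -2.75). Slc22a7 (OAT2) fell from 65.7 ± 7.94 to 2.77 ± 0.878 TPM and Acsm3, a medium-chain acyl-CoA synthetase, from 157 ± 38.5 to 11.97 ± 2.03 TPM. The steroid and bile acid carrier Slco1a1 fell from 41.7, 29.7, 26.7 and 113 TPM, highest in vehicle 4, to 2.43, 2.81, 2.20 and 2.76 TPM. One marker went the other way: Slc6a18, an apical carrier of neutral amino acids, rose from 134, 145, 161 and 112 TPM to 246, 231, 204 and 290.2 TPM (0.81 ± 0.21, adjusted p = 0.00331), and its libraries did not overlap. Of 17 markers of the whole proximal tubule, 16 were lower and none higher (median -2.07), and their sum fell to 23.9% of vehicle. The levels of Lrp2 (megalin), the receptor of protein uptake, at 500.1, 498, 472 and 522 TPM in vehicle and 53.6, 41.6, 42.1 and 67.9 TPM in cisplatin, were 9.72-fold lower by mean TPM. Cubn (cubilin), at 99.4, 96.4, 99.8 and 97.2 and 22.5, 14.9, 17.6 and 22.9 TPM, was 5.04-fold lower. Their clathrin adaptor Dab2 was not called, at 55.8 ± 6.05 against 53.6 ± 2.26 TPM.

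**Figure D3:**
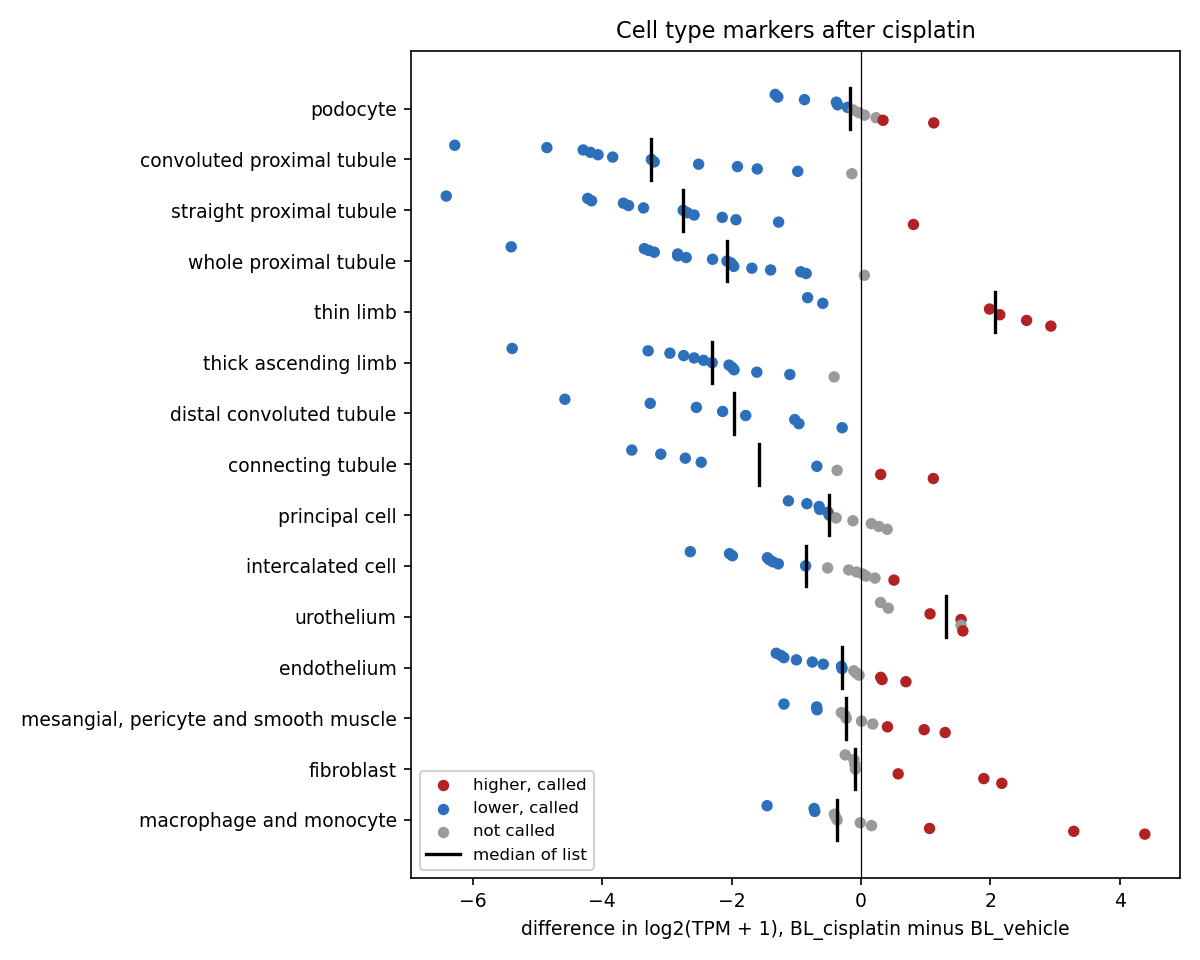
Difference in log2(TPM + 1), cisplatin minus vehicle, for each tested marker of 15 cell types in nephron order (points; red higher and called, blue lower and called, grey not called; black line, median of the list). The convoluted proximal tubule has the lowest median, -3.24, and the thin limb the highest, 2.07.

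Nearly every marker of the next salt-recovering segments was lower as well. Of 13 thick limb markers 12 were lower (median -2.30; sum at 15.9% of vehicle). Umod, uromodulin, went from 1631, 1382, 1743 and 1012 TPM to 146, 349.6, 154 and 389 TPM (-2.58 ± 0.36). Slc12a1 (NKCC2), the furosemide-sensitive salt carrier, went from 295, 233, 361 and 153 to 15.7, 26.5, 16.4 and 51.8 TPM (-3.29 ± 0.48). Egf went from 208, 182, 208 and 155 to 2.37, 4.16, 2.60 and 5.40 TPM (-5.39 ± 0.67). Cisplatin 2 and 4 kept more of all 3 than cisplatin 1 and 3. The calcium-sensing receptor Casr fell from 19.6 ± 2.88 to 2.13 ± 0.804 TPM and the paracellular magnesium channel Cldn16 from 4.75 ± 0.4995 to 0.926 ± 0.527 TPM, while its partner Cldn19 was not called at 5.30 ± 2.37 against 7.29 ± 2.46 TPM. It was called lower without cisplatin 4 or without vehicle 4 (-0.64 and -0.60).

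All 8 of 8 distal convoluted tubule markers were lower (median -1.96). Slc12a3, the thiazide-sensitive salt carrier that defines the segment, went from 256, 259, 253 and 273 TPM to 8.34, 10.9, 7.46 and 14.2 TPM (-4.58 ± 0.56). Pvalb, parvalbumin of the early part of the segment, went from 9.82, 11.5, 12.8 and 11.2 to 0.287, 0.334, 0.276 and 0.236 TPM (-3.26 ± 0.57). Both were separated by more than 10-fold between the lowest vehicle and the highest cisplatin library. The connecting tubule was split, with 5 of 8 markers lower and 2 higher. Calb1 (calbindin) fell from 58.2 ± 4.59 to 6.06 ± 1.55 TPM, the sodium-calcium exchanger Slc8a1 from 92.4 ± 9.79 to 17.0 ± 7.99 TPM, and Kl (klotho), the co-receptor of the phosphate hormone FGF23, from 88.9 ± 11.1 to 6.93 ± 2.46 TPM. The calcium channel Trpv6 rose from 0.330, 0.328, 0.365 and 0.327 to 2.07, 1.39, 1.80 and 2.45 TPM, and its neighbour Trpv5 was not called at 3.85 ± 1.93 against 4.97 ± 0.722 TPM (-0.61 and called without cisplatin 4). Atp2b1, a plasma membrane calcium pump, rose from 13.3 ± 0.350 to 16.7 ± 1.195 TPM.

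Principal cells of the collecting duct had the tubule median nearest 0: 6 of 11 markers were lower and none higher (median -0.49; 2 higher and 3 lower on the protein-coding scale). With the title prefix as a term none of the 6 was called. The water channel Aqp2 stood at 149, 67.3, 119.9 and 112 TPM after cisplatin and 92.8, 90.7, 164 and 62.7 TPM in vehicle, the basolateral Aqp4 at 5.80 ± 2.09 and 6.33 ± 1.99 TPM, and neither was called. The sodium channel subunit Scnn1g fell from 15.4 ± 0.908 to 6.74 ± 2.08 TPM and Avpr2, the vasopressin receptor, from 6.08 ± 1.56 to 2.93 ± 0.619 TPM. Among intercalated cell markers 8 of 15 were lower (median -0.86), led by the ammonia carrier Rhcg, from 47.3 ± 2.60 to 7.20 ± 3.12 TPM, the bicarbonate exchanger Slc4a1 of acid-secreting cells, from 5.92 ± 1.77 to 0.733 ± 0.658 TPM, and pendrin (Slc26a4) of base-secreting cells, from 25.3 ± 3.22 to 8.97 ± 3.35 TPM. Foxi1, the transcription factor that specifies intercalated cells, was not called, at 8.45 ± 1.24 against 8.83 ± 0.203 TPM. Kit, a receptor tyrosine kinase listed with these cells, rose from 1.96 ± 0.252 to 3.21 ± 0.238 TPM.

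Among inner medullary and urothelial markers, most calls were higher. The thin limb list had 4 higher and 2 lower of 6 tested from 8 (median 2.07), and none was called with the title prefix as a term. Cryab, the small heat shock protein alpha-B-crystallin, stood at 412, 455, 402 and 414 TPM against 63.8, 49.0, 85.7 and 31.7 TPM, Bst1 at 12.01 ± 2.47 against 2.06 ± 1.08 TPM, and Slc4a11 at 14.0 ± 1.74 against 1.63 ± 0.779 TPM. Slc14a2, the urea transporter of the inner medulla, stood at 21.5, 32.5, 29.6 and 35.2 TPM against 9.45, 7.25, 18.4 and 1.023 TPM. Of the lower genes, the protease Corin (0.441 ± 0.164 against 1.30 ± 0.953 TPM) overlapped between groups. Its call was lost without vehicle 1 (-0.57), vehicle 3 (-0.34), cisplatin 1 (-0.54), cisplatin 2 (-0.61) or cisplatin 3 (-0.56). The urothelial list had 3 of 6 higher and none lower, and 1 higher with the title prefix as a term. Only 1 of the 6 did not overlap between groups. Their summed level overlapped, at 38.2, 13.7, 20.9 and 39.2 TPM after cisplatin and 19.4, 3.89, 17.8 and 0.885 TPM in vehicle. Krt5, a basal cell keratin, rose from 0.381, 0.0334, 0.263 and 0 to 2.85, 1.98, 1.5996 and 3.40 TPM. Vehicle 4 was the lowest library for Slc14a2, Cryab, Bst1 and Slc4a11, and it was lowest for Umod among vehicle libraries. The labels do not say which portion of a divided kidney was sequenced, and the part of medullary content in these results was not tested.

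Several families of solute carriers had mostly lower members. Of 20 members of Slc22, the organic anion and cation carriers, tested from 27, 18 were lower and none higher (median -2.56). Slc22a2 (OCT2), the basolateral carrier that brings cisplatin into proximal cells, fell from 129, 137, 118 and 140.2 TPM to 26.0, 20.5, 18.6 and 29.3 TPM (-2.44 ± 0.34). Slc22a6 (OAT1) fell from 230.5 ± 46.6 to 23.4 ± 4.19 TPM, the urate carrier Slc22a12 from 523 ± 111 to 71.7 ± 12.1 TPM, and Slc22a30 from 79.6 ± 19.5 to 1.08 ± 0.415 TPM. Slc22a2, Slc22a6 and Slc22a12 were named for their known functions after their values were seen. In Slc5, the sodium-coupled carriers of glucose, inositol and monocarboxylates, 7 of 9 tested from 13 were lower and none higher (median -1.67): Slc5a12, a lactate carrier, fell from 112 ± 5.42 to 5.22 ± 2.92 TPM, whereas Slc5a1 (SGLT1) of the late proximal tubule fell from 18.02 ± 1.42 to 10.5 ± 2.63 TPM.

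Other transporter families had members called in both directions. Slc35, the nucleotide sugar carriers of the Golgi, had 7 higher (33.3%) and 8 lower (38.1%) of 21 tested (median 0.081). Over all genes tested these shares were 38.0% and 28.8%. Slc38, sodium-coupled carriers of neutral amino acids, had 3 higher and 1 lower of 6 (median 0.25). None of the 6 was called with the title prefix as a term. In Slc16, the proton-coupled monocarboxylate carriers, 9 of 12 were lower and 3 higher, and no library overlapped in any of the 12. Slc16a9 fell from 62.6 ± 1.17 to 11.2 ± 1.96 TPM and Slc16a7 (MCT2), a high-affinity pyruvate and lactate carrier, from 28.7 ± 5.71 to 3.77 ± 1.23 TPM, while Slc16a1 (MCT1), the widespread lactate carrier, rose from 7.34, 8.19, 7.20 and 7.84 to 26.1, 27.6, 28.6 and 25.9 TPM (1.70 ± 0.15, adjusted p = 1.89e-05) and Slc16a6 from 2.36 ± 0.733 to 10.1 ± 1.11 TPM. Among symbols starting with Slc7, the amino acid exchangers, 6 of 11 were lower and 4 higher. The epithelial members Slc7a7 and Slc7a9, which recover cationic amino acids and cystine, fell from 40.4 ± 2.01 to 3.58 ± 0.927 TPM for Slc7a7 and from 44.5 ± 2.78 to 9.86 ± 1.21 TPM for Slc7a9. The growth-associated members Slc7a1 and Slc7a5 (LAT1) rose from 0.884 ± 0.225 to 2.89 ± 0.495 TPM for Slc7a1 and from 0.807 ± 0.213 to 2.42 ± 0.564 TPM for Slc7a5. Among glucose carriers Slc2a2 (GLUT2), the basolateral exit of the proximal tubule, fell from 29.9 ± 3.14 to 9.30 ± 2.26 TPM. Slc2a1 (GLUT1) rose from 13.3 ± 3.09 to 44.9 ± 8.001 TPM. Of the zinc and metal carriers Slc30 and Slc39, 7 of 19 (36.8%) were higher and 8 (42.1%) lower. Their median was 0.0087, and -0.073 with quantile normalization. Slc39a14 rose from 6.56 ± 0.619 to 26.7 ± 3.12 TPM, and Slc39a5 and Slc39a8 fell to 21.2% and 36.5% of vehicle.

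Claudins set the ion permeability of tight junctions. Of 14 tested, 6 (42.9%) were higher and 5 (35.7%) lower, where all genes tested gave 38.0% and 28.8%. Their median was -0.093, and 0.11 on the protein-coding scale. Cldn4, a sealing claudin of the distal nephron, rose from 9.85, 6.94, 8.05 and 5.32 TPM to 147, 167, 169.8 and 134 TPM (4.21 ± 0.60), Cldn1 from 2.75 ± 0.402 to 35.3 ± 9.73 TPM and Cldn3 from 5.11 ± 0.997 to 37.6 ± 8.65 TPM. Pore-forming claudins were among the lower members. Cldn10 fell from 37.4 ± 4.90 to 6.99 ± 2.23 TPM and Cldn2, the sodium and water pore of the proximal tubule, from 114 ± 2.85 to 57.9 ± 13.2 TPM. In the list of adherens and tight junction genes 9 of 12 were higher. Cdh1 (E-cadherin) rose from 32.3 ± 2.98 to 71.95 ± 5.30 TPM and Cgn (cingulin) from 3.82 ± 0.749 to 12.1 ± 1.51 TPM. Cdh16, the kidney-specific cadherin, fell from 392 ± 29.9 to 191 ± 49.3 TPM as the only lower member.

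**Figure D4:**
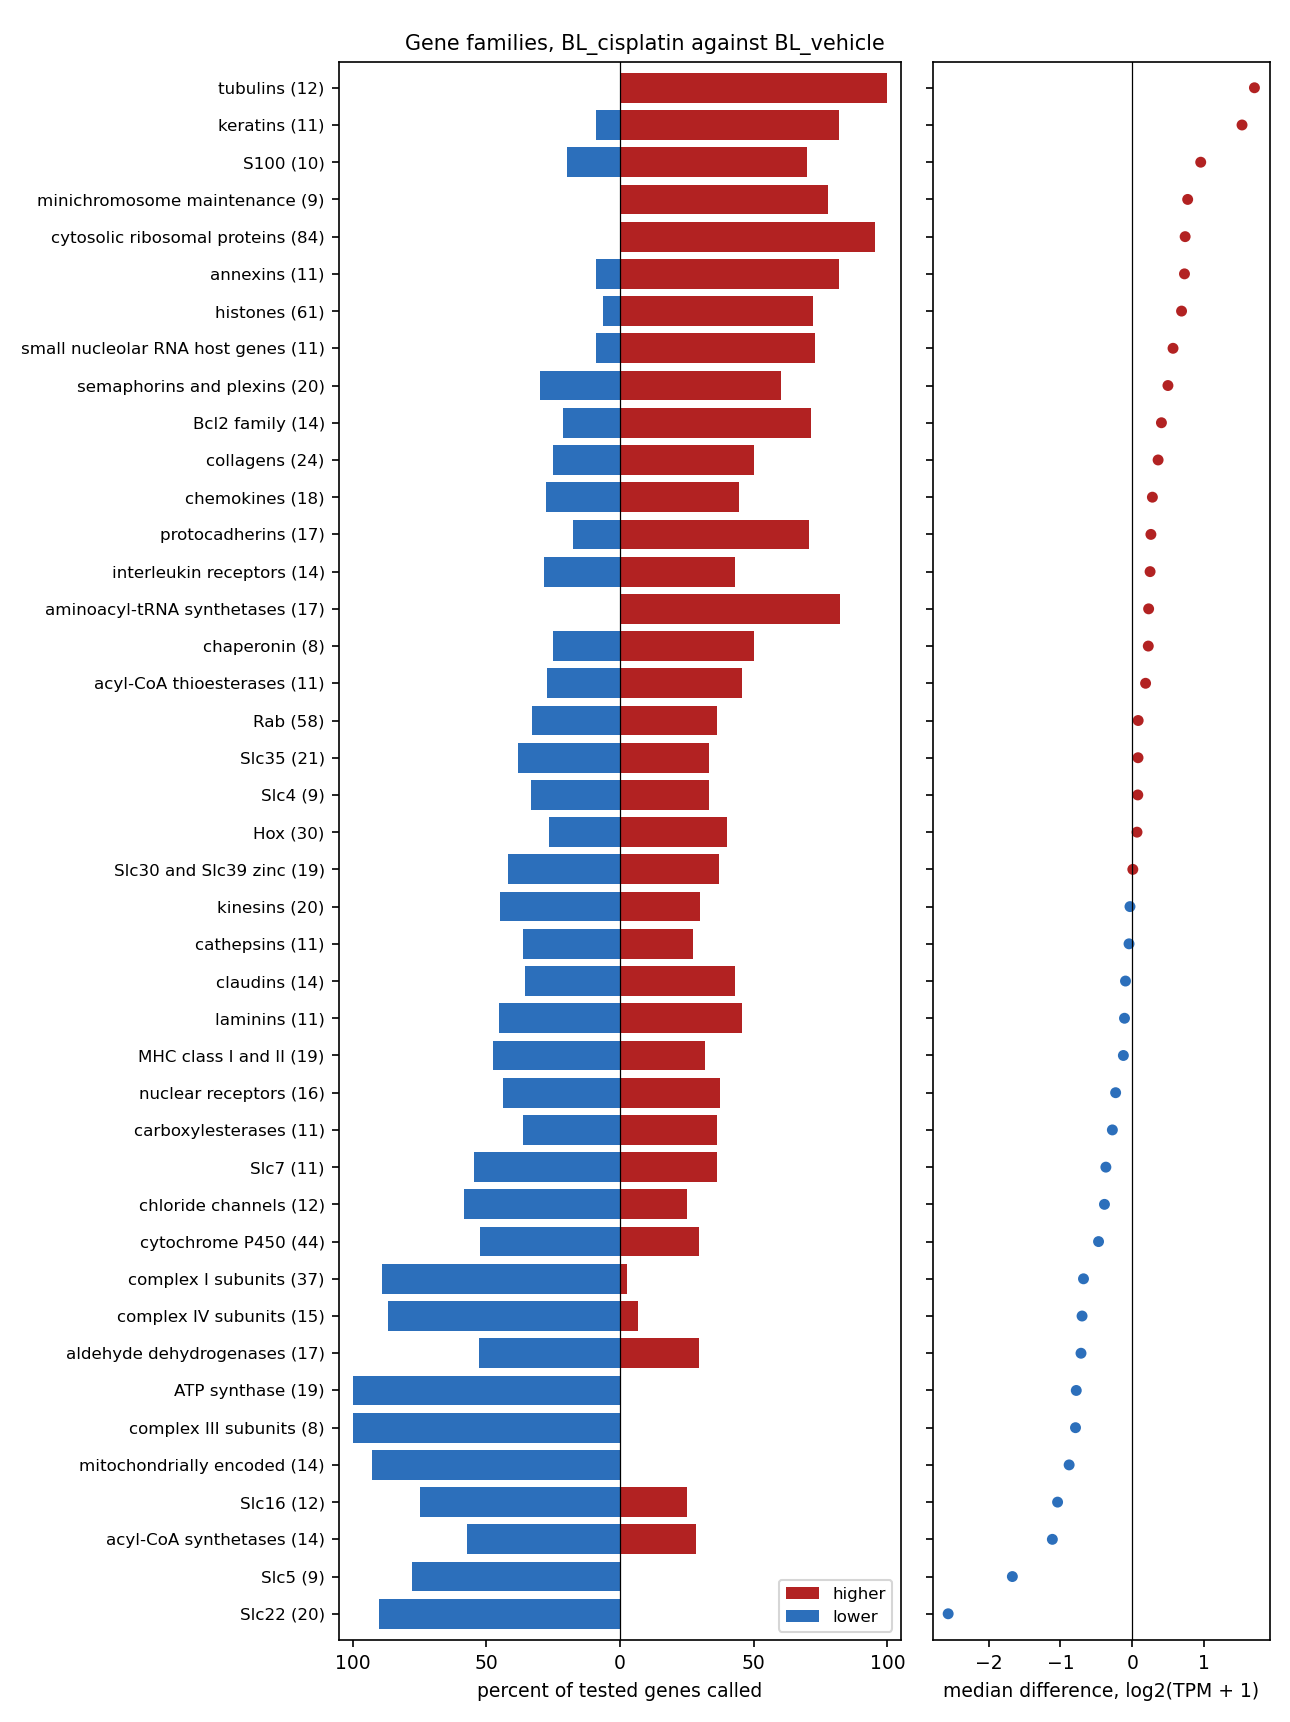
Percent of the tested genes of each family shown that were called higher (right, red) or lower (left, blue), with the number tested in parentheses. The right panel gives the median difference in log2(TPM + 1) of each family shown. Families were selected on these same calls: most members in a single direction, or a sizeable share in each. Families with few tested genes and those meeting neither condition, such as potassium channels and aquaporins, were left out. The figure is thus no survey of all families. Over all genes tested 38.0% were higher and 28.8% lower. Of the families shown, Slc22 has the lowest median, -2.56, and tubulins the highest, 1.70.

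The enzymes of proximal tubule metabolism fell with its carriers. Of 29 genes of amino acid catabolism, 26 were lower and 2 higher (median -1.72). Ass1, which makes the arginine precursor argininosuccinate, stood at 869, 1058, 882 and 1155 TPM in vehicle and 99.1, 85.4, 87.2 and 113 TPM in cisplatin (-3.35 ± 0.41). Among the higher genes Glud1, glutamate dehydrogenase, which releases ammonia, rose from 103 ± 3.21 to 163 ± 19.1 TPM. The call of Glud1 was lost when cisplatin 1, cisplatin 4 or any 1 vehicle library was left out (differences of 0.59, 0.63, 0.66, 0.66, 0.67 and 0.63). In glucose transport and gluconeogenesis 7 of 9 were lower. G6pc, the glucose-6-phosphatase that releases glucose, fell from 253 ± 37.1 to 15.8 ± 3.68 TPM and Fbp1, fructose-1,6-bisphosphatase, from 535 ± 48.9 to 74.6 ± 11.8 TPM. Glycolysis genes had no common direction, with 6 of 18 higher and 9 lower (median -0.17, and 0.075 on the protein-coding scale). Hk2, the hexokinase bound to mitochondria in growing cells, rose from 0.218, 0.135, 0.799 and 0.198 to 3.43, 4.71, 3.23 and 6.13 TPM and Pfkfb3, which makes the activator of phosphofructokinase, from 2.74 ± 0.720 to 8.84 ± 1.69 TPM. Ldhb, a lactate dehydrogenase chain, fell from 432 ± 16.005 to 182 ± 33.3 TPM, and Hk1 was not called.

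Genes of mitochondrial energy metabolism were mostly lower, in the nuclear and in the mitochondrial genome, while those of mitochondrial translation and import were less uniform. Of 18 genes of the tricarboxylic acid cycle 16 were lower and none higher (median -0.97), with Idh2, the mitochondrial isocitrate dehydrogenase, falling from 172 ± 9.99 to 37.7 ± 5.59 TPM and citrate synthase (Cs) not called at 73.1 ± 13.5 against 82.5 ± 5.62 TPM (-0.31 and called without cisplatin 4). In the respiratory chain 33 of 37 complex I subunits were lower (median -0.68), 8 of 8 of complex III (-0.79), 13 of 15 of complex IV (-0.70) and 19 of 19 of ATP synthase (-0.78). Ndufs1, the largest core subunit of complex I, fell from 33.8, 34.2, 34.8 and 34.7 to 10.8, 10.1, 9.30 and 14.3 TPM (-1.56 ± 0.22). Atp5a1, the alpha chain of ATP synthase, fell from 552, 587, 599 and 562 to 242, 232, 221 and 269.9 TPM (-1.25 ± 0.16). Against this direction Cox6b2, known as a testis isoform of complex IV, rose from 2.10, 2.44, 2.73 and 1.96 TPM to 34.8, 28.03, 31.6 and 27.0 TPM (3.24 ± 0.61). Of the 14 messenger and ribosomal RNAs of the mitochondrial genome, 13 were lower. The messengers together held 2.08% ± 0.174 of TPM after cisplatin and 3.95% ± 0.0588 in vehicle. Mitochondrial ribosomal RNA held 29.6% ± 2.56 and 32.996% ± 1.06, with overlap, and mt-Rnr1 was not called. Of 80 nuclear genes of mitochondrial ribosomal proteins 48 were lower and 11 higher, and the median of -0.23 became 0.0027 on the protein-coding scale (28 lower, 20 higher). Of 21 genes of mitochondrial protein import 11 were lower and 1 higher, with a median of -0.20 that became 0.043 on that scale (5 lower, 5 higher).

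Genes of fat oxidation were less uniform. In mitochondrial fatty acid oxidation 8 of 16 were lower and 1 higher (median -0.36; 5 higher and 7 lower on the protein-coding scale). Acadm, the medium-chain dehydrogenase, fell from 176 ± 11.05 to 47.5 ± 7.28 TPM, and Cpt1a, the gate of fatty acid entry, from 128 ± 2.46 to 84.4 ± 5.41 TPM. Among peroxisomal genes 16 of 24 were lower and 2 higher. Hao2 and Dao, oxidases of hydroxy acids and D-amino acids, fell from 91.5 ± 16.5 to 4.84 ± 2.17 TPM for Hao2 and from 92.3 ± 10.7 to 4.89 ± 1.35 TPM for Dao, whereas Pex11a, a peroxisome division factor, rose from 13.3, 16.2, 12.4 and 12.9 to 28.9, 23.2, 25.9 and 18.7 TPM (0.76 ± 0.17). Cyp4a14, a cytochrome P450 of fatty acid omega-oxidation, rose from 6.98, 24.3, 6.04 and 1.89 TPM to 389, 262, 336 and 82.4 TPM (4.86 ± 0.85). Acot1 and Acot2, fatty acyl-CoA thioesterases, rose from 25.04 ± 9.68 to 96.0 ± 26.5 TPM for Acot1 and from 14.2 ± 1.999 to 60.5 ± 14.1 TPM for Acot2. Pex11a, Cyp4a14, Acot1 and Acot2 are known targets of the fatty acid receptor PPAR-alpha. This grouping was made after their values were seen and is no survey of such targets. Cpt1a and Acadm, known targets as well, fell. Whether activity of PPAR-alpha changed was not tested. In the 4 that rose, cisplatin 4 was the lowest cisplatin library, and no cisplatin library overlapped vehicle.

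Of 44 cytochrome P450 genes tested, 23 were lower and 13 higher, and the median of -0.47 turned to 0.13 on the protein-coding scale. The abundant members fell: Cyp4b1 went from 1151 ± 113 to 241 ± 33.01 TPM and Cyp2e1, which metabolises ethanol and acetone, from 655 ± 239.8 to 25.4 ± 14.7 TPM. Carboxylesterases, which cleave esters and drugs, had 4 lower and 4 higher of 11 (36.4% each, against 28.8% and 38.0% of all genes tested). Ces1d fell from 197 ± 36.0 to 12.6 ± 10.2 TPM and Ces2e rose from 5.68, 6.21, 5.79 and 4.57 to 109, 89.1, 106 and 111 TPM. In the aldehyde dehydrogenases 9 of 17 were lower and 5 higher, with the retinoic acid-making Aldh1a1 rising from 2.42, 4.63, 4.95 and 4.37 to 79.4, 55.8, 63.1 and 44.9 TPM and Aldh1a2 from 1.44 ± 0.217 to 6.48 ± 0.880 TPM. Acyl-CoA synthetases had 8 of 14 lower and 4 higher: Acsm2, a medium-chain enzyme of the proximal tubule, fell from 524 ± 129.9 to 25.2 ± 0.747 TPM, and Acsl4, which loads arachidonic acid and sensitises membranes to ferroptosis, rose from 12.1, 12.1, 12.2 and 9.60 to 83.3, 59.5, 69.8 and 68.6 TPM (2.51 ± 0.31). Cholesterol synthesis had 11 of 21 lower. Cyp51, lanosterol demethylase, fell from 48.7 ± 8.37 to 4.64 ± 0.389 TPM and Hmgcs1, an early enzyme of the pathway, from 147 ± 14.4 to 39.03 ± 8.10 TPM.

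Among androgen-regulated genes of the proximal tubule, 8 of 10 were lower and none higher (median -2.88), and Odc1, ornithine decarboxylase, and Gusb, beta-glucuronidase, were not called. Odc1 stood at 159, 152, 139.5 and 169 against 325, 257, 189 and 489 TPM and was called lower without vehicle 3 (-1.15), and with the compared groups fitted alone or HP_cisplatin 4 left out (-0.94 in both). Vehicle 4 was the highest vehicle library for Kap, Slco1a1, Cyp2e1, Odc1 and Gusb, at 13.6 TPM of Gusb against 6.67, 6.35 and 6.27 TPM in vehicle 1 to 3. Genes of endocytic trafficking had 8 of 17 lower and 4 higher, with a median of 0.036, and 6 lower and 9 higher on the protein-coding scale: the brush border genes Tmem27 (collectrin) and Pdzk1, a scaffold of apical carriers, fell from 469 ± 28.4 to 51.3 ± 8.27 TPM for Tmem27 and from 356 ± 22.2 to 65.1 ± 10.1 TPM for Pdzk1, and Rab11a of recycling endosomes rose from 21.3 ± 0.731 to 29.1 ± 1.68 TPM. Of 22 lysosomal genes 8 (36.4%) were higher and 8 (36.4%) lower, where all genes tested gave 38.0% and 28.8%. Their median was -0.11, and 0.11 on the protein-coding scale. Ctsd, cathepsin D, rose from 228 ± 14.1 to 625 ± 18.6 TPM and Glb1, beta-galactosidase, fell from 74.9 ± 5.18 to 26.2 ± 1.67 TPM.

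Transcription factors of tubule identity were lower too, with a median nearer 0 than the proximal lists. Of 24 in the list 13 were lower and 2 higher (median -0.37; 7 higher and 11 lower on the protein-coding scale). Hnf4a, the master regulator of proximal tubule genes, stood at 182, 199.7, 175 and 197 TPM in vehicle and 52.0, 36.8, 46.9 and 49.4 TPM in cisplatin (-2.01 ± 0.23). Esrra and Ppargc1a, which drive mitochondrial genes, fell from 44.6 ± 1.57 to 21.9 ± 1.78 TPM for Esrra and from 17.1 ± 1.82 to 7.46 ± 1.47 TPM for Ppargc1a. Pax8, which specifies the kidney in the embryo, rose from 25.4 ± 2.66 to 40.0 ± 1.87 TPM. Cilium genes were lower in 18 of 24 (median -0.40), among them the intraflagellar transport gene Ift122, from 9.87 ± 0.675 to 2.76 ± 0.492 TPM. Arl13b, a small GTPase of the ciliary membrane, was the only higher member, from 2.21 ± 0.133 to 3.91 ± 0.441 TPM.

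**Figure D5:**
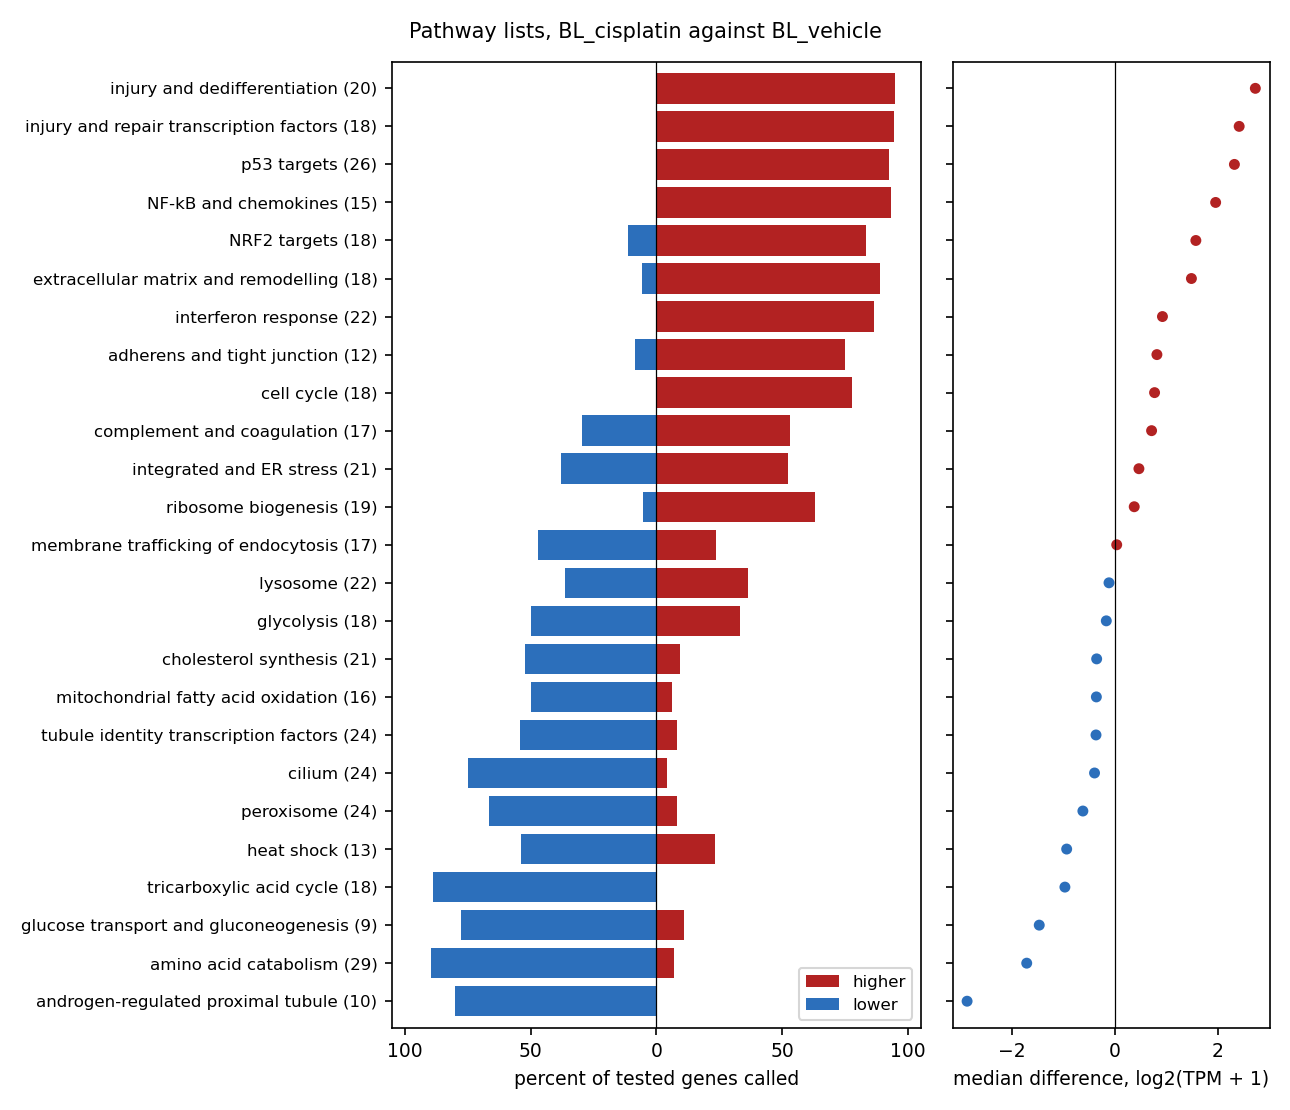
Percent of the tested genes of each pathway list that were called higher (right, red) or lower (left, blue), with the number tested in parentheses, and the median difference in log2(TPM + 1) in the right panel. Injury and dedifferentiation has the highest median, 2.74, and the androgen-regulated list the lowest, -2.88.

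Genes of epithelial injury and repair were higher nearly throughout. Of 20 injury and dedifferentiation genes 19 were higher (median 2.74). Spp1 stood at 4081, 4486, 4173 and 5752 TPM against 283, 306, 385 and 172 TPM, and Tnfrsf12a (Fn14), the TWEAK receptor, at 201, 208, 217 and 190.5 against 10.8, 8.89, 8.99 and 11.5 TPM (4.22 ± 0.59). Vcam1, an adhesion molecule of tubule cells that fail to repair, was the member not called. Cisplatin 4 had 6.34 TPM of it and the other 7 libraries at most 1.70 TPM. In the keratins 9 of 11 tested from 51 were higher and 1 lower. Krt20 and Krt5 were below 1 TPM in every vehicle library and passed the filter through cisplatin libraries. A rise was the likely call for such members, so the count is partly set by the filter. Krt8 and Krt18, the pair of simple epithelia, rose from 44.4 ± 2.71 to 246 ± 7.22 TPM for Krt8 and from 8.66 ± 3.20 to 80.0 ± 7.29 TPM for Krt18, Krt19 rose from 1.21 ± 1.03 to 15.99 ± 3.18 TPM, and Krt10 of the epidermis fell from 1.33 ± 0.103 to 0.476 ± 0.162 TPM. All 12 tubulins tested from 19 were higher (median 1.70), led by Tubb6, from 2.497, 2.66, 3.25 and 2.35 to 55.2, 58.0, 59.8 and 52.0 TPM (3.96 ± 0.46). Annexins, calcium-dependent membrane binders, had 9 of 11 higher, such as Anxa2, from 10.3 ± 2.68 to 95.4 ± 17.8 TPM, and Anxa13 as the exception, from 3.65 ± 0.547 to 0.360 ± 0.141 TPM. In the S100 family 7 of 10 tested from 19 were higher: S100a6 rose from 6.44, 4.37, 8.65 and 4.22 to 183, 158, 149 and 280.0 TPM.

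Transcription factors of injury and repair were higher in 17 of 18 (median 2.42). Sox9, which marks tubule cells that re-enter growth after injury, stood at 7.0003, 7.24, 5.61 and 6.21 TPM against 0.154, 0.0767, 0.128 and 0.117 TPM (2.74 ± 0.41), and Sox4 at 28.2, 26.9, 31.3 and 26.5 against 2.81, 2.71, 2.89 and 2.06 TPM (3.02 ± 0.34). Fosl1, an AP-1 subunit, stood at 32.1, 33.8, 36.9 and 30.6 TPM and had 4 reads over all 4 vehicle libraries; with limma voom on recovered reads its adjusted p was 0.0598. The stress factor Atf3 rose from 0.639 ± 0.270 to 15.6 ± 1.99 TPM. None of these 4 had a vehicle library above 3 TPM.

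Of 26 p53 targets 24 were higher and none lower (median 2.33). Cdkn1a stood at 172, 179, 181 and 177 TPM against 0.772, 0.494, 1.36 and 1.47 TPM (6.49 ± 0.86). Mdm2, the ligase that limits p53, stood at 69.6, 65.8, 63.0 and 87.5 against 10.8, 9.79, 10.04 and 10.6 TPM (2.67 ± 0.42). Gdf15, a secreted stress cytokine, stood at 107, 147, 129.7 and 98.2 against 3.73, 2.53, 2.41 and 3.96 TPM (4.87 ± 0.76). Cdkn1a was the most even of them, its 4 cisplatin libraries lying within 10 TPM of each other. Phlda3 and Psrc1 rose from 3.05 ± 0.988 to 75.3 ± 8.35 TPM for Phlda3 and from 0.135 ± 0.0718 to 15.7 ± 0.727 TPM for Psrc1, and Sesn1 was not called. In the Bcl2 family of cell death regulators 10 of 14 were higher and 3 lower. The killers Bbc3 (Puma) and Bax rose from 0.611 ± 0.167 to 7.38 ± 0.895 TPM for Bbc3 and from 19.0 ± 1.18 to 72.6 ± 3.10 TPM for Bax, the survival factor Bcl2l1 (Bcl-xL) rose from 25.1 ± 0.817 to 73.3 ± 2.34 TPM, and Bid and Bcl2 itself fell from 18.9 ± 1.63 to 9.99 ± 1.10 TPM for Bid and from 2.70 ± 0.168 to 1.63 ± 0.231 TPM for Bcl2.

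The microRNA gene Mir34a, a known p53 target, was named after its values were seen. Its gene model had 14, 16, 10 and 6 reads in the cisplatin libraries and 0, 0, 0 and 0 in vehicle (adjusted p = 4.53e-05), at least 17.5-fold higher against a floor of 3 reads over the vehicle group. Mir30e, likewise named after its values were seen and of a family known in podocytes and tubule cells, had 7, 1, 10 and 12 against 33, 28, 19 and 24 reads (-1.48 ± 0.34). The labels name no selection of small RNA, so these reads are taken as those of longer transcripts over the hairpin and not of mature microRNAs, and with so few of them counting error is large. The mature products are shown because a microRNA selects its targets through the seed, bases 2 to 8, given in capitals. The 2 seeds differ. On GRCm38.p6, per RefSeq, miR-34a-5p lies at chr4:150068473-150068494 on the plus strand and miR-30e-5p at chr4:120772660-120772681 on the minus strand.
miR-34a-5p: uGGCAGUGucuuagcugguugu
miR-30e-5p: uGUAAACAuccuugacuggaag

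Genes of oxidant and metal defence were higher. NRF2 is the factor that induces antioxidant enzymes, and of 18 of its targets 15 were higher and 2 lower (median 1.58). Srxn1, sulfiredoxin, stood at 327, 369.8, 364 and 190.5 TPM against 16.2, 18.04, 17.3 and 18.9 TPM (4.03 ± 0.58), Hmox1, the haem-degrading oxygenase, at 96.8, 99.8, 92.1 and 98.3 against 10.7, 14.5, 9.36 and 11.8 TPM (2.97 ± 0.46), and Nqo1 at 118 ± 19.9 against 24.1 ± 2.25 TPM. The lower members were Osgin1, from 21.9 ± 4.24 to 12.1 ± 1.17 TPM, and malic enzyme Me1, from 89.1 ± 4.68 to 51.5 ± 5.02 TPM. Mt2 and Mt1, cysteine-rich proteins that bind zinc, copper and platinum, stood at 927, 1081, 1122 and 771 TPM against 20.5, 17.7, 21.9 and 26.2 TPM (5.43 ± 0.80) and at 1532, 1785, 1743 and 1053 against 94.4, 71.2, 79.2 and 91.0 TPM (4.15 ± 0.61). The 250 bases before the start sites of Mt2 and Srxn1 are shown because these genes led their groups and their regulators read short motifs. Capitals mark the core of the metal response element, TGCACNC or TGCGCNC, in Mt2 and the AP-1 type core TGANTCA, which is also part of many antioxidant response elements, in Srxn1, each searched on both strands. Either form of the metal response core occurred 3 times before Mt2 and 1 time before Mt1, where 21.4% of 32851 RefSeq promoters of this length held at least 1 and 1.26% held as many as Mt2. TGANTCA occurred 2 times before Srxn1, where 6.75% of promoters held at least 1 and 0.338% at least as many. Positions are chr8:94172368-94172617 and chr2:152105274-152105523 of GRCm38.p6, both on the plus strand, and a match is a description of the letters only.
Mt2: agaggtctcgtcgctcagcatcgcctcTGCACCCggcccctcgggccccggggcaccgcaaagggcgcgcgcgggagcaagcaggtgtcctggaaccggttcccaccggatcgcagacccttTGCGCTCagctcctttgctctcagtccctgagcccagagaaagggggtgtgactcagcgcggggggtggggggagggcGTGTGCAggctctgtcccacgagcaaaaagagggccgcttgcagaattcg
Srxn1: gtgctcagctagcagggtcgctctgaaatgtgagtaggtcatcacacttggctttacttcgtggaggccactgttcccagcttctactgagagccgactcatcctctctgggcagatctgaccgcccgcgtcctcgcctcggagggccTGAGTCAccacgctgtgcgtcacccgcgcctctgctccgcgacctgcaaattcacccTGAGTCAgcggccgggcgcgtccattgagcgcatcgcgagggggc

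Fibrinogen, complement C3 and inflammatory genes were higher. In complement and coagulation 9 of 17 were higher and 5 lower. The 3 fibrinogen chains rose together: Fga stood at 295, 229, 299.9 and 374 TPM against 12.3, 6.23, 7.51 and 4.25 TPM, Fgg at 283, 209, 261 and 334 against 2.13, 2.22, 1.75 and 1.33 TPM and Fgb at 35.5, 26.9, 39.9 and 37.4 against 0.142, 0.154, 0.151 and 0.0705 TPM. Fgb was below 0.2 TPM in all vehicle libraries. Complement C3 rose from 1.92, 3.14, 4.42 and 3.10 to 92.6, 66.8, 70.3 and 151 TPM (4.49 ± 0.62). Cfb of the alternative complement pathway fell from 8.66 ± 0.956 to 2.99 ± 0.836 TPM, and the protease Plau was not called. Liver markers were evenly split, with 3 higher and 3 lower of 6 tested from 8 (median 0.018). The plasma protein genes Apoc3, Serpina1a and Apoa1 rose from 3.70 ± 0.967 to 27.1 ± 5.81 TPM for Apoc3, from 17.1 ± 2.06 to 52.6 ± 12.3 TPM for Serpina1a and from 0.357 ± 0.0905 to 2.06 ± 0.756 TPM for Apoa1. Ttr, Alb and Apoa2 fell from 73.1 ± 16.1 to 6.78 ± 0.762 TPM for Ttr, from 2.60 ± 0.895 to 0.899 ± 1.35 TPM for Alb, with overlap between groups, and from 4.37 ± 0.590 to 1.49 ± 0.698 TPM for Apoa2. The part of liver RNA in the fibrinogen values was not tested. The NF-kB and chemokine list had 14 of 15 tested from 20 higher and none lower (median 1.96). Cxcl1, a neutrophil attractant, rose from 2.16, 0.598, 1.28 and 0.830 to 30.1, 27.4, 30.5 and 31.7 TPM, Il34, a ligand of the macrophage receptor Csf1r, from 7.16 ± 2.35 to 46.4 ± 2.51 TPM and Nfkb2 from 4.43 ± 0.609 to 26.2 ± 3.74 TPM. Of 18 chemokine genes tested 8 (44.4%) were higher and 5 (27.8%) lower, near the 38.0% and 28.8% of all genes tested. Cxcl12 fell from 15.4 ± 3.90 to 3.93 ± 1.0201 TPM. Interferon response genes were higher in 19 of 22 (median 0.93), with Oasl1 at 13.4, 16.3, 17.7 and 12.5 against 0.724, 0.888, 0.625 and 0.751 TPM and Isg15 at 9.04 ± 1.95 against 1.14 ± 0.282 TPM.

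Leukocyte markers were split. Of 11 macrophage and monocyte markers tested from 14, 3 were higher and 3 lower (27.3% each, against 38.0% and 28.8% of all genes tested). Cd68 and Cd14 rose, from 1.52, 1.57, 2.06 and 1.73 to 56.7, 60.8, 68.1 and 41.3 TPM and from 1.80 ± 0.543 to 26.2 ± 3.85 TPM. Adgre1 (F4/80) and Csf1r, which define the resident macrophage, fell from 1.67 ± 0.246 to 0.667 ± 0.467 TPM and from 13.0, 12.5, 14.5 and 10.4 to 3.75, 3.27, 3.31 and 5.85 TPM. Of 8 neutrophil markers only S100a8 and S100a9 reached the filter, rising from 0.0350 ± 0.0287 to 1.399 ± 0.462 TPM for S100a8 and from 0.154 ± 0.0398 to 2.97 ± 1.05 TPM for S100a9. S100a8 had 4 reads over the vehicle libraries, and outside the compared groups only CR_cisplatin 1 reached 1 TPM. It thus passed the filter through the BL_cisplatin libraries, and a rise was the only call open to it. A change in neutrophils was not tested, as the other markers were too low. None of 12 T and NK cell markers and none of 5 dendritic cell markers was tested, with summed levels of 2.98 ± 1.05 and 1.93 ± 0.378 TPM in vehicle and 0.939 ± 0.250 and 0.860 ± 0.442 TPM after cisplatin. In the major histocompatibility genes 6 of 19 were higher and 9 lower: the class II chains H2-Aa and H2-Ab1, which present antigen on immune cells, fell from 28.9, 31.1, 32.0 and 23.0 to 2.42, 2.17, 2.33 and 4.78 TPM and from 31.5 ± 3.04 to 4.83 ± 1.68 TPM.

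Vessel and stromal lists had medians near 0. In the endothelium 8 of 14 were lower and 3 higher (median -0.30). Pecam1 was not called at 7.10 ± 0.721 against 7.76 ± 0.948 TPM, Ehd3 of glomerular endothelium fell from 13.2 ± 1.91 to 4.78 ± 1.204 TPM, and Kdr, the main receptor of VEGF, from 12.6 ± 1.29 to 4.95 ± 0.740 TPM. Among mesangial, pericyte and smooth muscle markers 3 were higher and 3 lower of 11: Pdgfrb rose from 11.05 ± 0.986 to 15.0 ± 1.597 TPM, renin (Ren1) fell from 36.2 ± 11.9 to 14.9 ± 2.38 TPM, and the myofibroblast marker Acta2 was not called at 15.1 ± 0.990 against 13.4 ± 2.92 TPM. Fibroblast markers had 3 of 7 higher and none lower (median -0.086, and 0.15 on the protein-coding scale), the fibrillar collagens Col1a1 and Col3a1 rising from 1.75 ± 0.362 to 11.7 ± 3.42 TPM for Col1a1 and from 3.70 ± 0.883 to 16.5 ± 2.74 TPM for Col3a1, with Pdgfra and Dcn not called. In the matrix and remodelling list 16 of 18 tested from 22 were higher. Col18a1, a basement membrane collagen, rose from 26.1 ± 3.04 to 154 ± 6.09 TPM, and fibronectin (Fn1), at 3.06, 3.23, 3.65 and 9.10 against 3.98, 5.07, 6.59 and 4.53 TPM, was not called. Without cisplatin 4 Fn1 was called lower (-0.47). Basement membrane chains moved in both directions: among laminins 5 were higher and 5 lower of 11 (median -0.11, and 0.13 on the protein-coding scale). Lama5 rose from 18.5 ± 1.07 to 74.1 ± 8.75 TPM, and Lama3 fell from 12.2 ± 0.396 to 7.79 ± 1.85 TPM. Col4a3 of the mature glomerular and tubular membrane fell from 49.0 ± 3.73 to 21.9 ± 4.63 TPM.

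Levels of blood and fat markers differed between libraries. All 4 of 4 red blood cell genes tested were lower, none of them called with the title prefix as a term, and haemoglobin beta (Hbb-bs) stood at 0.252, 0.0619, 0.151 and 0.143 TPM against 9.94, 10.8, 6.47 and 8.31 TPM. The kidneys were perfused, and both groups held little of it. The summed level of the 5 fat markers was 15.1, 16.9, 22.6 and 189 TPM in the cisplatin libraries and 0.180, 0.343, 24.3 and 1.38 TPM in vehicle. Of 4 tested only Cidec, a protein of lipid droplets, was called, at 14.4, 16.4, 21.99 and 37.5 TPM against 0.0792, 0.0525, 8.86 and 0.492 TPM (3.45 ± 0.80, adjusted p = 0.00168). It was above 14 TPM in every cisplatin library and below 9 TPM in every vehicle library. Cidec made up most of the sum in cisplatin 1 to 3. Adipoq and Plin1 were high in cisplatin 4 (20.3 and 21.5 TPM) and vehicle 3 (7.31 and 4.24 TPM) and under 1 TPM in the other 6. The part of blood and fat content in other genes was not tested. Markers of adrenal cortex and skeletal muscle did not reach the filter.

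Ribosomal genes and the cell cycle genes tested were mostly higher. Of 84 genes of cytosolic ribosomal proteins 80 were higher and none lower (median 0.74; 29 higher with the title prefix as a term), and 81 did not overlap between groups. Rplp0 stood at 529.6, 524, 543 and 531 TPM against 243, 250.3, 256 and 238 TPM (1.10 ± 0.18) and Rpl12 at 77.1, 78.5, 76.7 and 73.7 against 30.2, 29.9, 30.3 and 28.8 TPM (1.33 ± 0.22). Differences within the family ranged from -0.069 to 1.33. Ribosome biogenesis genes were higher in 12 of 19, among them nucleolin (Ncl), from 10.95 ± 0.456 to 18.3 ± 0.286 TPM, and 14 of 17 cytosolic aminoacyl-tRNA synthetases were higher, led by Vars, from 7.97 ± 0.477 to 18.3 ± 2.14 TPM. Small nucleolar RNA host genes were higher in 8 of 11. Of 241 small nucleolar RNAs 90 (37.3%) were higher, a share near the 38.0% of all genes, and 10 were lower. Of 27 cell cycle genes 18 were tested, and of these 14 were higher and none lower, at low levels. Mki67, present in all cycling cells, stood at 2.88, 2.84, 2.52 and 3.50 TPM against 0.564, 0.692, 0.633 and 1.22 TPM (1.16 ± 0.20). Top2a, of G2 and mitosis, stood at 1.86, 1.76, 1.64 and 2.67 against 0.247, 0.241, 0.274 and 0.637 TPM. Top2a was below 1 TPM in every vehicle and CR_cisplatin library, so it passed the filter through cisplatin libraries in which it was high. For such genes the filter favours a rise, and the count of higher genes is partly set by it. Rrm2, which supplies deoxynucleotides, rose from 0.855 ± 0.328 to 7.03 ± 0.576 TPM, and the replication helicase subunit Mcm2 from 4.25 ± 0.525 to 8.34 ± 0.205 TPM. Of 61 histone genes 44 were higher and 4 lower, with Hist1h2af at 7.03 ± 1.88 against 0.627 ± 0.0975 TPM. Mki67 and the cell cycle inhibitor Cdkn1a were thus both higher in the same 4 libraries.

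Protein quality control was split. In the list of integrated and endoplasmic reticulum stress 11 of 21 were higher and 8 lower. The amino acid genes Psat1 and Asns, targets of ATF4, rose from 6.77 ± 1.76 to 35.4 ± 7.94 TPM for Psat1 and from 1.022 ± 0.131 to 5.05 ± 0.932 TPM for Asns, whereas Shmt2, the mitochondrial serine enzyme, and Herpud1, of reticulum-associated degradation, fell from 88.0 ± 10.2 to 19.8 ± 1.81 TPM for Shmt2 and from 175 ± 19.7 to 46.4 ± 5.27 TPM for Herpud1. Heat shock genes were lower in 7 of 13 and higher in 3: Hspa8, the constitutive HSC70, fell from 645 ± 68.9 to 227 ± 28.5 TPM and Hspb1 (HSP25) rose from 9.25 ± 2.46 to 79.0 ± 15.6 TPM. Inducible Hspa1b was not called and varied among vehicle libraries, at 122, 128, 46.9 and 21.8 TPM. Without vehicle 4 it was called lower (-1.44).

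Outside protein-coding genes, the signal recognition particle RNA 7SL (Rn7s1 and Rn7s2) took 26.3% ± 2.90 of TPM after cisplatin and 18.6% ± 0.438 in vehicle. Long noncoding RNAs took 1.52% and 0.618%, and the most abundant of them named by the rule, the nuclear speckle RNA Malat1, rose from 2369.9, 2307, 2426 and 2318 to 5876, 5447, 5889.6 and 5346 TPM (1.26 ± 0.14). Pseudogenes took 4.41% and 7.79%, and reads of such copies can belong to their parent genes. This sum does not describe most members: of 917 pseudogenes tested 389 (42.4%) were higher and 171 (18.6%) lower. Called genes also differed in size. Among protein-coding genes spanning under 10 kb, 42.5% were higher and 29.9% lower, and among those spanning 100 kb or more 27.8% were higher and 41.9% lower. The 100 protein-coding genes called more than 8-fold higher had a median span of 9.74 kb, against 23.8 kb for all those tested and 20.2 kb for the 116 called more than 8-fold lower. Short genes were thus more often higher and long genes more often lower. This is a description across genes that share libraries and processing.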

How the data were processed

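Kidney total RNA of 16 libraries was depleted of ribosomal RNA, primed with random primers and sequenced, per the labels' protocols. The authors deposited 1 table of TPM values per gene and library. Per the submitters' processing notes the tools were STAR 2.5 and featureCounts of Subread 1.5, and the builds named are mm10 and GRCm38, while the step from reads to TPM is not given in the sources used here. TPM makes each library sum to the same total, so a rise of abundant RNAs lowers the values of all others. With exon lengths of GENCODE M21, 76.3% of 32198 genes with reads came out as whole reads within 0.0001 reads, and a searched length gave whole reads for 99.997% in all, which supplied the depth. Genes of at least 1 TPM in 4 or more libraries were tested on log2(TPM + 1) with limma 3.58.1 (R 4.3.3, statmod 1.5.0), with a trended and robust prior, 4 groups in 1 fit and no covariate. P-values were adjusted over all genes tested by the Benjamini-Hochberg method, with a threshold of 0.05. The code was tested on simulated data. Genes were named by rule: the 10 largest rises and falls on the log2 scale and in TPM, and for each list or family its first 2 genes, up to 5 largest calls, up to 3 against the majority and up to 2 not called. Some genes that the rule selects are not reported here. The members, lists and rules were chosen with earlier results of these data known. For a symbol carried by several genes, the most abundant was used. Promoters of 250 bases and mature microRNAs are RefSeq sequences on GRCm38.p6. Alternatives were another pseudocount, other filters, 3 rescalings, voom, other fits and leaving out each library.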

Additional observations from a re-analysis of the deposited data

Results flagged for a closer look

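Among the 233 genes named in the report, the 4 libraries of a group were compared with each other, and a library was singled out where its gap to the nearest other, as a share of the range of the group, passed the critical value of Dixon's test for 4 values. Chance alone gives such a gap in about 1 in 20 groups, and 34 of 466 groups showed one. Cisplatin 4 accounted for 15 of them and vehicle 4 for 10. The values below are those of the library that stood apart, followed by the lowest and highest of the other 3. No cause was tested.

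Cisplatin 4 lay above the others for Acsm3 at 15.0 TPM (10.8 to 11.3), Adgre1 at 1.36 TPM (0.379 to 0.544), Adipoq at 20.3 TPM (0.135 to 0.236) and Ces1d at 27.8 TPM (6.25 to 9.63). It was also high for Col1a1 at 16.8 TPM (9.44 to 10.3), Cyp2e1 at 47.4 TPM (17.2 to 19.2), Fn1 at 9.10 TPM (3.06 to 3.65) and G6pc at 21.2 TPM (13.2 to 14.5). The same library was high for H2-Aa at 4.78 TPM (2.17 to 2.42), Mep1b at 2.12 TPM (0.713 to 0.869), Phlda3 at 87.8 TPM (70.1 to 72.1) and Plin1 at 21.5 TPM (0.195 to 0.298). Its last such genes were Ttc36 at 28.9 TPM (8.43 to 11.9), Vcam1 at 6.34 TPM (0.790 to 1.70) and mt-Rnr1 at 115900 TPM (68755 to 74448).

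Cisplatin 1 lay above the others for Alb at 2.92 TPM (0.156 to 0.320). Cisplatin 3 lay below the others for Mcm2 at 8.04 TPM (8.43 to 8.46). Vehicle 4 lay above the others for Clic5 at 23.0 TPM (19.1 to 19.5), Gusb at 13.6 TPM (6.27 to 6.67), Ren1 at 53.7 TPM (27.8 to 32.1) and Top2a at 0.637 TPM (0.241 to 0.274). Vehicle 4 lay below the others for Acsl4 at 9.60 TPM (12.1 to 12.2), Cdh16 at 348 TPM (401 to 411), Cs at 74.1 TPM (84.5 to 86.1) and Cyp51 at 36.3 TPM (51.4 to 53.7). It was also low for Fgb at 0.0705 TPM (0.142 to 0.154) and Hspb1 at 5.60 TPM (9.99 to 10.9). Vehicle 3 lay above the others for Adipoq at 7.31 TPM (0.0533 to 0.505), Cidec at 8.86 TPM (0.0525 to 0.492), Hk2 at 0.799 TPM (0.135 to 0.218) and Plin1 at 4.24 TPM (0.0256 to 0.280). It was also high for Trpv6 at 0.365 TPM (0.327 to 0.330). Vehicle 2 lay above the others for Bid at 21.3 TPM (17.8 to 18.3) and Cyp2d12 at 207 TPM (65.3 to 87.8).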

How the results depend on the processing

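No paired analysis was possible because the replicate numbers were given in accession order and pair no libraries. The limits are the number of libraries, 4 against 4, the title prefix that coincides with the comparison, and the TPM scale, which a few abundant RNAs can move. Leaving out each library in turn gave 9363 to 9951 genes changed, 5250 to 5715 higher and 3880 to 4662 lower. With the prefix as a term the counts were 3413 changed, 1929 higher and 1484 lower, and that term rests on 1 library. A filter of 5 TPM gave 6656 changed and 3551 higher because fewer genes, 8963, were tested. The protein-coding scale, added after the data were seen, gave 2699 lower, and it tests 12079 genes. The remaining counts under a pseudocount of 0.1, no filter, the composition rescaling, quantile normalization, the compared groups alone, plain eBayes, limma voom on recovered reads and, added after the data were seen, HP_cisplatin 4 left out of the fit were within 1.5 times those reported. Higher genes made up 56.9% of calls as reported, 65.1% with voom, 61.4% with the composition rescaling, 62.2% with no filter and 49.9% with quantile normalization. No gene named in the report changed direction while called under any of these settings. Of the 233 genes named, 62 lost their call with the prefix as a term, 3 with voom, 1 on the protein-coding scale, 2 with no filter and 1 with the compared groups alone, where the cause was not tested.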
